A study of Mus musculus with 4 samples.

Results

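The 7 genes described here are the transcription factors *Msc*, *Tcf21*, *Lhx2*, *Tlx1*, *Myf5*, *Myod1* and *Myog*, chosen by their symbols from the 32285 genes listed in the count files. All 7 symbols were found, each in 1 row. The data are 4 libraries of single-cell RNA from the *Tbx1* lineage, sorted from the dissected pharyngeal region and heart of E9.5 mouse embryos. The question was how removal of the second copy of *Kmt2d*, which encodes a histone methyltransferase, changes expression in cells that already have 1 functional copy of *Tbx1*. Control embryos (cHet) were Tbx1Cre/+; Kmt2d F/+; GFP F/+ and mutant embryos (cKO) were Tbx1Cre/+; Kmt2d F/F; GFP F/+. The labels name the strain as outbred SwissWebster, and the methods of the study describe lines kept on a mixed C57BL/6 and Swiss Webster background. Cre was knocked into the *Tbx1* coding region, so cHet and cKO embryos were both heterozygous for *Tbx1*, and GFP-positive cells are those in which this Cre has acted, at E9.5 or earlier. Each genotype had 2 libraries, Rep1 made from 4 pooled embryos and Rep2 from 3. Each pool counts as 1 sample, which gives n = 2 libraries per genotype throughout. Values for single libraries are given in the order cHet Rep1, cKO Rep1, cHet Rep2, cKO Rep2.

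The muscles of the jaw, face, pharynx and larynx, called branchiomeric, form from mesoderm of the pharyngeal arches and not from somites. In this mesoderm the bHLH factors *Msc* (also called MyoR) and *Tcf21* (capsulin) and the LIM homeobox factor *Lhx2* act with *Tbx1* ahead of muscle commitment, whereas somitic myogenesis starts under *Pax3*. In both settings *Myf5* and *Myod1* commit cells to the muscle fate and *Myog* drives differentiation into muscle fibres. *Tlx1* encodes a homeobox factor best known for its requirement in spleen formation.

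The libraries held between 179454146 and 234726019 UMIs (unique molecular identifiers, 1 per captured transcript), and 33448 cells were kept, between 5869 and 11938 per library. The median was between 17240.5 and 22972 UMIs per cell. The cells kept held 60% of all UMIs in cHet Rep1 and between 86.1% and 91.6% in the other 3 libraries, and cHet Rep1 also had the most barcodes, 37093 against 9307 to 16775. Libraries of the same replicate shared 87 (Rep1) and 71 (Rep2) barcodes, and libraries of different replicates shared 0. The replicates were made with different kits (Next GEM v3.1 and GEM-X v4.1), and depth, kit and pool cannot be told apart between them. By the somite counts the study lists, the oldest cHet embryos of Rep2 matched the youngest of its cKO pool. Genotype and somite stage therefore cannot be told apart in Rep2, while in Rep1 the cHet range enclosed that of cKO.

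Cells were clustered without the 7 genes, and 3 of 22 clusters were named BrM-like (branchiomeric mesoderm-like) from marker genes. Each is called here by 1 of its leading genes outside the 7: the Hlx cluster (1320 cells), the Plcxd3 cluster (983 cells) and the Emx2 cluster (980 cells), together 3283 cells. The name was checked against 8 markers outside the 7 genes and against the 5 of the 7 that served as markers. In the Hlx cluster the outside markers that passed included *Tbx1* and *Eya4*, and in the Plcxd3 and Emx2 clusters 1 passed (*Eya4*). The name of these last clusters therefore rests on *Msc*, *Lhx2*, *Tcf21* and *Myf5*, with *Tlx1* in the Plcxd3 cluster. Too few markers passed for the name unless 1 was also among the top 10 genes of the cluster. That marker was *Tlx1* in the Plcxd3 cluster and *Lhx2* in the Emx2 cluster, and without it the name would have been held back. In each of these clusters 2 aSHF markers (anterior second heart field, *Isl1* and *Fgf10*) also passed. The summed aSHF markers were at 277, 304, 550 and 573 CPM (UMIs of the genes scaled to all UMIs of the same cells) in BrM-like cells. The enrichment of the 7 genes there is a description and not a result. BrM-like cells made up 7.02% (95% exact binomial interval 6.38 to 7.7) of the cells kept in cHet Rep1, 6.34% (5.75 to 6.97) in cKO Rep1, 11.8% (11.1 to 12.4) in cHet Rep2 and 11.5% (10.9 to 12.1) in cKO Rep2. The share differed more between replicates than between genotypes. All intervals cover counting error only.

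In the BrM-like cells *Kmt2d* itself was counted at 16.9, 12.4, 24 and 19.4 CPM. The difference between genotypes (log2 fold change -0.33) did not pass the test (edgeR quasi-likelihood test, adjusted p = 0.475), and counts from transcript ends cannot tell if floxed exons are missing. *Tbx1* stood at 169, 160, 135 and 115 CPM (log2 fold change -0.14, edgeR adjusted p = 0.778).

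*Myog* and *Myf5* mark the end and the start of muscle commitment, and the 250 bases before their start sites are shown because they differ in E-boxes, the CANNTG motif that bHLH factors such as *Msc*, *Tcf21*, *Myf5*, *Myod1* and *Myog* bind. Sequences are from RefSeq on GRCm38.p6, 5′ to 3′ on the strand of the gene, with E-boxes in capitals. The motif reads the same on both strands. The *Myog* window lies at chr1:134289754-134290003 (+ strand) and the *Myf5* window at chr10:107486135-107486384 (- strand).
Myog: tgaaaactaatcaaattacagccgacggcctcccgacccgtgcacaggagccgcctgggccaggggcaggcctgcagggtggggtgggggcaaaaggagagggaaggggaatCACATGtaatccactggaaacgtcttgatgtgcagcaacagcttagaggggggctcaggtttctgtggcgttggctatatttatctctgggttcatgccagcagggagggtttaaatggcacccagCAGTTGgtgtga
Myf5: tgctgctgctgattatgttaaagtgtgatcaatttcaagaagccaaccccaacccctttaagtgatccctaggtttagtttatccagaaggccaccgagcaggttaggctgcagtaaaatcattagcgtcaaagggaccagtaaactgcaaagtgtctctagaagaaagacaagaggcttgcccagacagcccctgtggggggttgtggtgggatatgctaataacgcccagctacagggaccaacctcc
The *Myog* window held 2 E-boxes, starting 138 and 12 bases before the RefSeq start site, and the *Myf5* window held 0. An E-box was found in 66.2% of the 32851 windows of 250 bases before all listed start sites, with a median of 1 per window. The windows of *Tcf21* and *Lhx2* held 0 and that of *Tlx1* held 1, and RefSeq windows were matched for 5 of the 7 genes (not *Msc* and *Myod1*). A match is a description of the letters and says nothing of binding in these cells.

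In the annotation of GRCm38 (GENCODE M21), *Msc* lies on chromosome 1 (14753346 to 14755992, - strand), *Tcf21* on chromosome 10 (22817281 to 22820174, - strand), *Lhx2* on chromosome 2 (38339281 to 38369733, + strand) and *Tlx1* on chromosome 19 (45150680 to 45156943, + strand). *Myf5* lies on chromosome 10 (107482908 to 107486134, - strand), 6719 bases from its relative *Myf6*, *Myod1* on chromosome 7 (46376474 to 46379099, + strand) and *Myog* on chromosome 1 (134289989 to 134292548, + strand). Antisense genes overlap *Msc* (Gm9947), *Tcf21* (Gm10824), *Lhx2* (Gm27197 and Gm13584) and *Tlx1* (Tlx1os). How strand was used in the counting is not given in the sources used here. Gm9947 and Gm10824 were counted in rows of their own, and whether antisense reads entered the counts of the genes they overlap was not tested. No annotated gene overlaps *Myf5*, *Myod1* or *Myog*. By these bounds the ends of the RefSeq windows of *Myog*, *Tcf21* and *Tlx1* lie inside the genes. The *Myog* E-box nearest the RefSeq start site is then also within the gene.

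Across cell types, *Msc*, *Lhx2* and *Myod1* were found mainly in BrM-like cells, and *Tcf21* and *Tlx1* were shared with heart field cells. *Myf5* was found in BrM-like cells and in a somitic group, and most *Myog* UMIs were in the somitic group. Levels are UMIs summed per library and cell type, in CPM, as mean ± SD over 4 libraries. Levels of different genes are not compared, since 3′ UMIs of different genes are not captured alike, and no test was made across types because the types come from the same cells.

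*Msc* was at 75.8 ± 17.7 CPM in BrM-like cells, with a range of 59.6 to 101 that lay apart from that of every other type. The next were the neuronal-like cells at 5.04 ± 3.54 CPM and the posterior second heart field (pSHF)-like cells at 5.02 ± 0.283 CPM, which overlapped. Of all *Msc* UMIs, 89.7% were in BrM-like cells (73 to 93.8% per library). *Lhx2* had the same order at its head: 240 ± 75.4 CPM in BrM-like cells, 14.3 ± 10.1 CPM in neuronal-like cells and 10.2 ± 3.04 CPM in the cells like multilineage primed progenitors (MLP-like). The last pair overlapped in range. BrM-like cells held 89.9% of its UMIs (73.8 to 93.7% per library).

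*Tcf21*, which acts with *Msc* in the muscles of mastication and also has a role in the epicardium, was spread more widely. It was at 140 ± 65.6 CPM in BrM-like cells, 97.4 ± 37.8 CPM in MLP-like cells, 69.5 ± 25.7 CPM in pSHF-like cells and 44.9 ± 20.1 CPM in the cells like anterior second heart field (aSHF-like). Each of these types overlapped the next in range, and the spread follows the replicates, as *Tcf21* was higher in both Rep2 libraries in each of them. BrM-like cells held 50.8% of its UMIs, MLP-like cells 24%, pSHF-like cells 10.7% and aSHF-like cells 9.6%. The MLP-like cluster also carried the BrM markers *Eya1* and *Eya4*. With *Tcf21* these reached the number of markers needed, but conditions set after the clusters were seen held the BrM name back. The shares above follow this naming.

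*Tlx1* was at 95.1 ± 43.4 CPM in BrM-like cells, 65.1 ± 12.1 CPM in aSHF-like cells and 35.8 ± 16.8 CPM in cardiac muscle-like cells. The ranges of BrM-like and aSHF-like cells again overlapped. By mean share of cells, after each cell was thinned to an equal number of UMIs, aSHF-like cells stood above BrM-like cells. *Tlx1* was found in 40.4 ± 5.53% of aSHF-like cells (36.2 to 48.4%) and 34.6 ± 10.9% of BrM-like cells (21.6 to 45.5%), with overlapping ranges. In pSHF-like cells, where *Tcf21* was high, *Tlx1* was at 1.33 ± 0.31 CPM. BrM-like cells held 60.4% of the *Tlx1* UMIs (35.2 to 69.1% per library) and aSHF-like cells 23.9% (18.9 to 38.8%). The Plcxd3 cluster, which was named BrM-like through *Tlx1*, alone held 44%. The level and share of *Tlx1* in BrM-like cells therefore follow the naming.

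Of the 3 myogenic regulatory factors, *Myf5* was counted in BrM-like and in somitic cells, *Myod1* mainly in BrM-like cells and *Myog* mainly in somitic cells. *Myf5* was at 26.7 ± 14.4 CPM in BrM-like cells and 18.7 ± 13.2 CPM in cells like somitic myogenic cells (somitic-like, 410 cells named from *Pax3*, *Pax7*, *Meox1*, *Meox2*, *Tcf15* and *Met*), with overlapping ranges. The means of all other named types were at or below 2.1 CPM. *Myod1* was at 4.06 ± 1.25 CPM in BrM-like cells and 0.496 ± 0.19 CPM in MLP-like cells, and 0 UMIs were found in the 410 somitic-like cells, which allows a share of up to 0.732% of cells with a UMI. It was also at 0 UMIs in aSHF-like, cardiac muscle-like, endothelium-like and mesenchyme-like cells, which allows shares of up to 0.136%, 0.478%, 0.161% and 0.215%. *Myog* showed the reverse order, at 24.9 ± 20.7 CPM in somitic-like cells and 0.603 ± 0.515 CPM in BrM-like cells, with ranges that did not overlap (8.65 to 54.5 and 0.1 to 1.32 CPM). Of all *Myog* UMIs, 80.2% were in somitic-like cells and 13.5% in BrM-like cells. The highest somitic-like cell of each library held 10 of 10, 48 of 118, 38 of 45 and 55 of 70 of its *Myog* UMIs. Of the 66 cells with *Myog*, 20 were among the 410 somitic-like cells and 30 among the 3283 BrM-like cells.

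**Figure D1:**
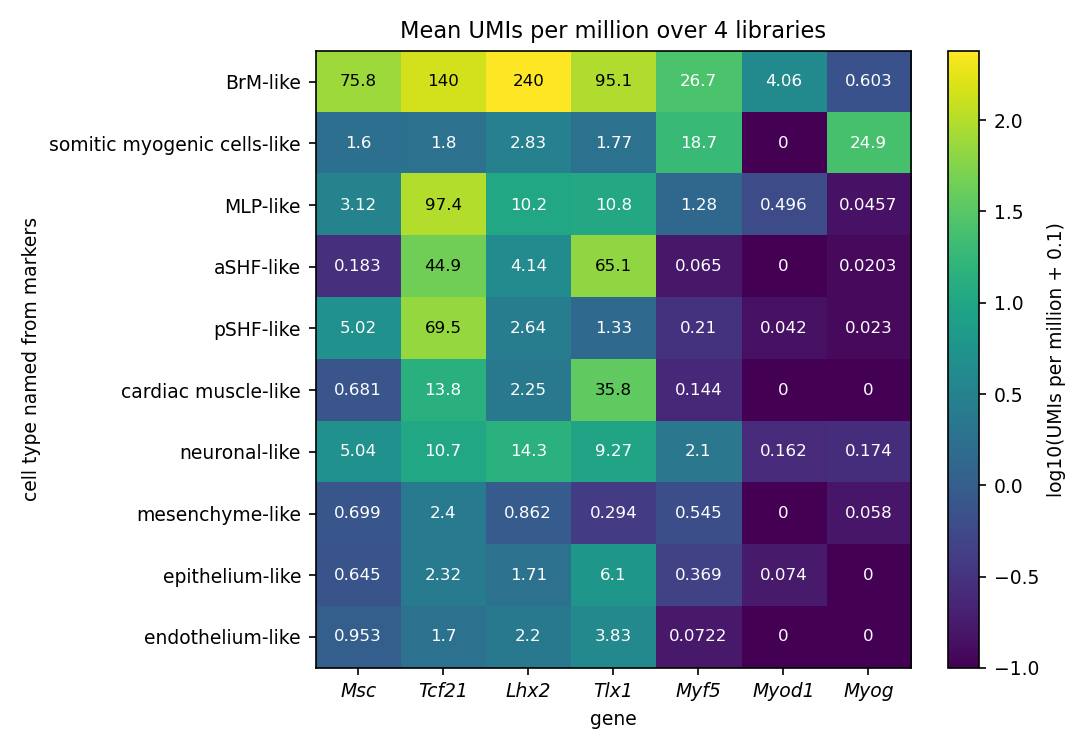
Mean level of each gene (columns) in each named cell type (rows), in CPM over 4 libraries, with colour on a log10 scale after adding 0.1. *Msc* and *Lhx2* stand out in the BrM-like row, *Tcf21* continues into the MLP, pSHF and aSHF rows, *Tlx1* into the aSHF and cardiac muscle rows, and *Myog* is highest in the somitic row, where *Myod1* is at 0.

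Free RNA can add UMIs to cells that do not express a gene. As a stand-in for its make-up, barcodes with under 1000 genes were read. They held at least 500 UMIs each, and whether they were empty of cells was not tested. Their CPM is no lower limit for cells: *Lhx2*, at 9.07 to 27 CPM in them, was at 0.588 to 3.86 CPM in endothelium-like and epithelium-like cells. In these barcodes *Msc* was at 3.9 to 7.03 CPM, *Tcf21* at 12.8 to 34.2 CPM, *Tlx1* at 5.57 to 14.8 CPM and *Myf5* at 2.23 to 7.6 CPM. *Myod1* had 7 UMIs there in cHet Rep1 (0.429 CPM) and 0 in the other libraries. *Myog* was at 0.49, 4.46, 6.53 and 0 CPM, on 8, 8, 13 and 0 UMIs. In BrM-like cells *Myog* was at 0.1, 1.32, 0.442 and 0.551 CPM, below these barcodes in 3 of 4 libraries, and the part of free RNA in these few UMIs was not tested. The mean levels of *Msc* and *Lhx2* in neuronal-like, pSHF-like and MLP-like cells were within or below the range in these barcodes. Single libraries of these types exceeded their own library's value, as for *Lhx2* in neuronal-like cells of cHet Rep1 (23.8 against 9.07 CPM) and *Msc* in neuronal-like cells of cKO Rep1 (8.48 against 3.9 CPM). *Tcf21* in MLP-like and pSHF-like cells and *Tlx1* in aSHF-like cells were above it in every library. Counted by cells instead, after each cell was thinned to 10000 UMIs, *Tlx1* was found in 3.64 ± 1.05% of endothelium-like cells and *Tcf21* in 1.02 ± 0.755%, against 34.6 ± 10.9% and 64.6 ± 14.6% of BrM-like cells (mean ± SD of 4 libraries). For *Msc*, *Lhx2* and *Myf5* the shares in endothelium-like cells were 0.578%, 0.983% and 0.0995%.

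Within the BrM-like cells the 3 clusters differed in *Tlx1* and *Myod1*. *Tlx1* was at 290 ± 69 CPM in the Plcxd3 cluster, 53.1 ± 36 CPM in the Hlx cluster and 12.9 ± 5.22 CPM in the Emx2 cluster, and the ranges did not overlap (194 to 351, 24.5 to 100 and 7.84 to 19.6 CPM). It was found in a median of 88.7%, 20.7% and 6.62% of the thinned cells of these clusters. *Tlx1* was left out of the clustering and led the genes of the Plcxd3 cluster by fold. That place gave this cluster its BrM-like name, so the contrast in *Tlx1* among the BrM-like clusters follows the naming in part. *Myod1* was at 8.38 ± 2.09 CPM in the Hlx cluster, 0.235 ± 0.197 CPM in the Plcxd3 cluster and 0.162 ± 0.124 CPM in the Emx2 cluster, and 146 of the 187 cells with *Myod1* in the whole data set were in the Hlx cluster. *Lhx2* was at 294 ± 83.1, 145 ± 84.5 and 224 ± 90.8 CPM in the Hlx, Plcxd3 and Emx2 clusters, with overlapping ranges. *Msc* (86.1 ± 17.7, 59.8 ± 21.5 and 70.8 ± 18.8 CPM), *Tcf21* (126 ± 62.5, 165 ± 74.6 and 141 ± 56.6 CPM) and *Myf5* (29.3 ± 18.3, 24.2 ± 11.3 and 25.6 ± 13.2 CPM) also overlapped in all 3. *Myf5* was thus found both in the Hlx cluster and in the clusters where *Myod1* was much lower.

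**Figure D2:**
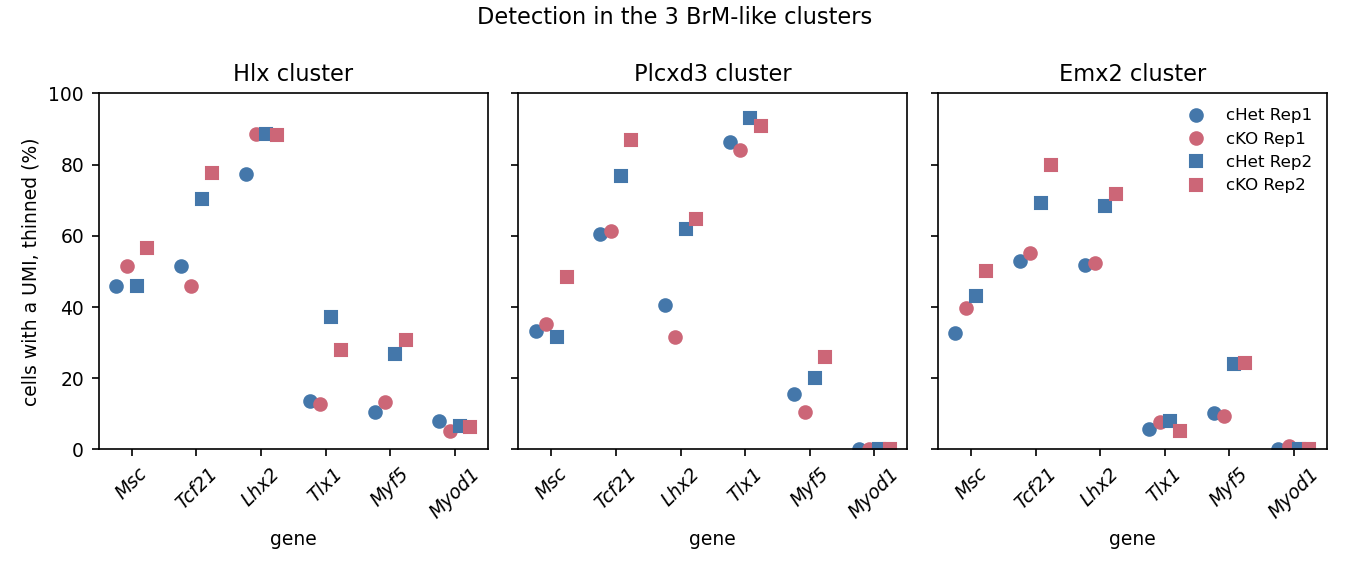
Share of cells with at least 1 UMI of each gene in the 3 BrM-like clusters, in percent, after each cell was thinned to 10000 UMIs (points are libraries, colour is genotype, circles are Rep1 and squares Rep2). *Tlx1* is found in 84.2 to 93.2% of cells of the Plcxd3 cluster and in at most 8.02% of the Emx2 cluster, and *Myod1* is seen almost only in the Hlx cluster.

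In BrM-like cells that were not thinned, the median number of UMIs in a cell with the gene was 6 for *Lhx2*, 4 for *Tlx1* and 1 for *Myf5*, *Myod1* and *Myog*. Capture differs between genes, so these medians are not compared. Of the 1174 BrM-like cells with *Myf5*, 53.2% had 1 UMI, and of the 155 with *Myod1*, 63.9% had 1. *Myog* was counted as 41 UMIs in 30 BrM-like cells, 90% of which had 1 UMI, whereas 20 somitic-like cells held 243 *Myog* UMIs, up to 55 in 1 cell. A cell without a UMI of such a gene may still express it.

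Most BrM-like cells held several of the 7 genes at once. Of the 3147 BrM-like cells with at least 10000 UMIs, thinned to that number, 113 (3.59%) held none of the 7, 427 (13.6%) held 1, 998 (31.7%) held 2, 996 (31.6%) held 3, 497 (15.8%) held 4, 114 held 5 and 2 held 6. The commonest combination was *Msc*, *Tcf21* and *Lhx2* (382 cells, 12.1%), followed by *Tcf21* with *Lhx2* (323 cells) and these with *Tlx1* (240 cells). *Msc*, *Tcf21* and *Lhx2* were also the genes found most often, in 1441, 2236 and 2283 cells, against 1227 for *Tlx1*. No expected number was taken for these combinations. None of *Msc*, *Tcf21*, *Lhx2* and *Myf5* was held by 183 cells (5.82%). These genes served as markers in the naming of the clusters, so this share follows the naming and is no check of it.

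Co-detection was set against the number expected if 2 genes were found independently within each library. As cells of 1 library share their source, the ratios are descriptions with their range over libraries. Of the 10 pairs among *Msc*, *Tcf21*, *Lhx2*, *Tlx1* and *Myf5*, 5 were above 1 in all 4 libraries and 3 below 1 in all 4. *Lhx2* and *Myf5* were found together in 620 cells against 517 expected (1.2-fold, range 1.1 to 1.22). *Lhx2* was in 88.4% of the 701 cells with *Myf5* and in 68% of the 2446 cells without it. The ratio was 1.31 within the Plcxd3 cluster and 1.37 within the Emx2 cluster, above 1 in all 4 libraries in both, but 1.03 within the Hlx cluster (above 1 in 2 of 4 libraries), where *Lhx2* was found in most cells.

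*Tlx1* and *Myf5* were found together in 353 cells against 287 expected (1.23-fold, range 1.14 to 1.41). This ratio was 1.71 within the Hlx cluster (1.45 to 2.15) and 1 within the Plcxd3 cluster, where nearly every cell had *Tlx1*. *Msc* went the other way: with *Tlx1* it was found in 482 cells against 562 expected (0.857-fold, range 0.749 to 0.91), and with *Myf5* in 302 against 327 (0.923-fold, range 0.784 to 0.966). Within the Hlx cluster these were 0.757 and 0.798, both below 1 in all 4 libraries. For *Msc* and *Myf5* the deficit was not seen in cells that were not thinned (1, above 1 in 2 of 4 libraries), and within the Plcxd3 cluster the thinned ratio was 1.22. *Tcf21* stood above 1 with *Tlx1* (1.1-fold) and with *Myf5* (1.05-fold) in all 4 libraries, and *Lhx2* with *Tlx1* below 1 (0.921-fold, range 0.756 to 0.951), which turned to 1.32 within the Emx2 cluster.

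**Figure D3:**
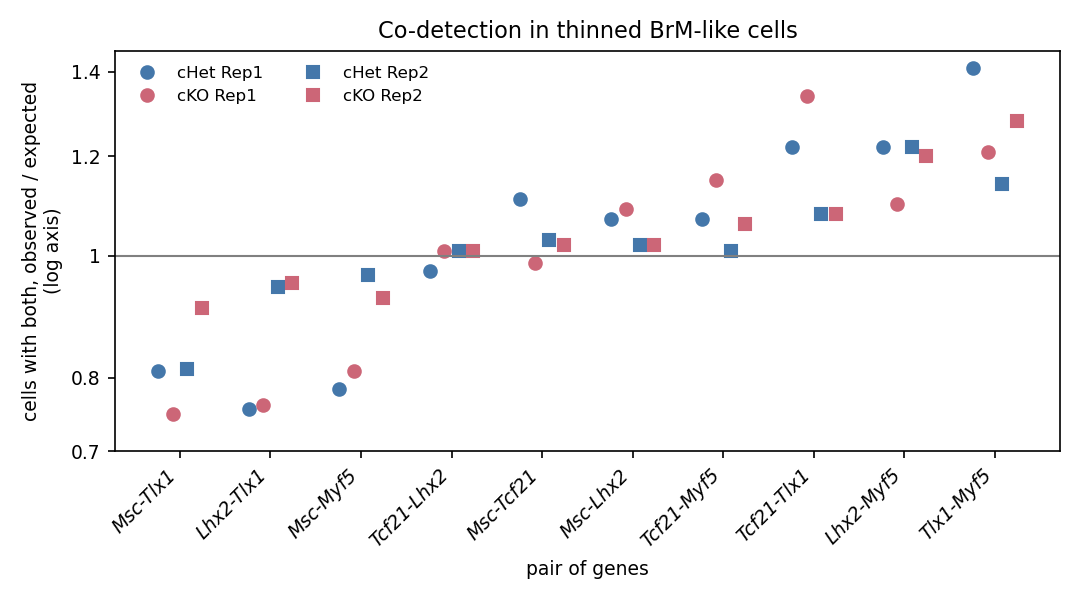
Number of thinned BrM-like cells with both genes of a pair, divided by the number expected from the single shares (vertical log axis, 1 means independent), for 10 pairs ordered by the ratio over all libraries. Points are libraries (colour genotype, circles Rep1, squares Rep2). *Lhx2* and *Tlx1* with *Myf5* lie above 1 in each library and *Msc* with *Tlx1* below.

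*Myod1* was seen in 83 thinned BrM-like cells. *Lhx2* was in 75 of them (90.4%, against 72.1% of the cells without *Myod1*), and *Tlx1* in 15 (18.1%, against 39.6%). By library *Tlx1* was in 0%, 0%, 40.9% and 18.2% of the cells with *Myod1* and in 31.3%, 22.3%, 45.6% and 42.1% of those without. With *Myf5* it was found in 17 cells against 17.5 expected, and *Myf5* was in 20.5% of the cells with *Myod1* and 22.3% of those without. By library these were 0 of 16, 0 of 12, 7 of 22 and 10 of 33 cells with *Myod1*, against 1.88, 1.4, 5.19 and 9.07 expected. These counts follow the clusters in part: within the Hlx cluster *Lhx2* and *Myod1* stood at 1.05 (range 1.03 to 1.13) and *Tlx1* and *Myod1* at 0.715 (range 0 to 1.1, above 1 in cHet Rep2).

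In somitic-like cells the muscle regulators were arranged differently. *Myog* was found in 20 of the 410 cells, of which 16 (80%) held *Myf5* and 8 (40%) held *Myf6*, another regulator of the same family, against 12.6% and 2.56% of the 390 cells without *Myog*. *Pax3* was in 95% and 91.3%. *Myod1* was in 0 of either, *Msc* in 0 and 2 cells, and *Tcf21* in 0 and 4 cells. Of 35 muscle differentiation genes, 34 were found in a larger share of the cells with *Myog* and 1 (*Chrna1*) in a smaller, with a median of 25% against 2.31% of cells. Among all 18644 genes found in somitic-like cells, 34.6% were in a larger share of the cells with *Myog*, and among the 12857 genes found in at least 10 cells 42.5% were, against 18 of 18 muscle differentiation genes. These cells are pooled over libraries that held 1, 9, 4 and 6 of them. *Cdh15*, a cadherin of muscle precursors, was in 75% and 10%, *Ttn* (titin) in 70% and 9.74%, and *Tnnt1* (slow troponin T) in 65% and 4.36%. The median depth was 24291.5 UMIs in the cells with *Myog* and 22521.5 in those without, and no test was made on these cells.

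Whether other genes go with *Myf5* was tested between BrM-like cells with and without a *Myf5* UMI, summed per library (edgeR quasi-likelihood test, library as a block, thinned cells, n = 4 libraries). Of 11835 genes, 384 (3.24%) passed, 147 (1.24%) higher and 237 (2%) lower beside *Myf5*. Of the other members of the group, *Lhx2* (log2 fold change 0.48 ± 0.05 SE, adjusted p = 7.01e-12), *Tcf21* (0.25, adjusted p = 0.00419) and *Tlx1* (0.24, adjusted p = 0.0317) were higher by this edgeR test. With library and cluster as the block (225 of 10325 genes called, 2.18%), *Lhx2* (0.5, adjusted p = 1.54e-05) and *Tlx1* (0.4, adjusted p = 0.0462) kept the call, and *Tcf21* did not (0.23, adjusted p = 0.0882). In that fit, clusters of 1 library entered as separate pairs, so its p-values do not rest on independent pools alone. *Msc* (-0.26, adjusted p = 0.0688) and *Myod1* (-0.27, adjusted p = 0.901) did not pass.

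Outside the 7 genes, the largest rises beside *Myf5*, among genes in at least 10% of either class, were 9330159F19Rik (1.08), *Runx1* (0.92), *Emx2os* (0.91), *Emx2* (0.87) and *Jam2* (0.84). *Runx1* encodes a runt domain factor and *Emx2* a homeobox factor. The largest falls were in *Irx1* (-2.62), an Iroquois homeobox factor, *Robo2* (-2.13), a Slit receptor, *Moxd1* (-1.94), *Lsamp* (-1.75) and *Irx3* (-1.61). All 10 kept their direction and their call with library and cluster as the block. Of 19 reported upstream and partner factors 0 were higher and 1 lower, the homeobox factor *Six2* (-0.57). Of 14 inhibitors of myogenic bHLH factors, *Id2* was higher (0.27) and *Twist1* lower (-0.54). Of 14 muscle differentiation genes 0 passed in either direction by edgeR (4 at an unadjusted p under 0.05, as were 1380 of all 11835 genes), with a median log2 fold change of 0.31 against 0.02 over all genes tested.

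The same comparison was made for *Myod1* or *Myog*, with 90 cells that held either, 88 of them in the Hlx cluster. In the edgeR test, 384 of 11168 genes (3.44%) passed, 133 (1.19%) higher and 251 (2.25%) lower. *Tlx1* was lower beside *Myod1* or *Myog* (log2 fold change -1.7 ± 0.22, edgeR adjusted p = 7.76e-13), but within the Hlx cluster alone it did not pass (-0.73, adjusted p = 0.355), and there 36 of 9519 genes (0.378%) were called. *Msc* (0.08), *Lhx2* (0.21), *Tcf21* (-0.35) and *Myf5* (-0.01) did not pass in either fit. Genes higher beside *Myod1* or *Myog* over all BrM-like cells were led by *Musk* (3.41), the muscle-specific receptor kinase of the neuromuscular junction, *Cnpy1* (3.39), *Dll1* (3.31), a Notch ligand, *Cdh15* (2.7) and *Mrln* (2.33), which encodes the muscle peptide myoregulin. Within the Hlx cluster alone none of these 5 passed by edgeR (adjusted p between 0.0535 and 0.578), with log2 fold changes in the same direction of 2.3, 2.22, 2.37, 2 and 1.45 in the same order. Without the 7 cells that held *Myog* alone, an alternative added after the data were seen, edgeR called 335 of 11106 genes, *Tlx1* (-1.59, adjusted p = 2.27e-10) among them, and all 10 genes with the largest changes kept their calls.

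*Cpne4* and *Msx1*, a homeobox factor, were found in 0% of the cells with *Myod1* or *Myog* and in 16.1% and 12% of the others, and *Moxd1* (-5.38), *Hgf* (-4.74), a ligand of the Met receptor, and *Unc5d* (-4.55) were the largest other falls. Within the Hlx cluster alone *Unc5d* did not pass (-2.35, edgeR adjusted p = 0.465) and the other 4 fell under the count filter, and the part of the cluster in these falls was not tested. Of 19 reported upstream and partner factors 2 were higher and 5 lower: *Eya2* (1.85) and *Ebf1* (0.28) were higher, and *Isl1* (-3.48), *Dach1* (-1.75), *Eya1* (-0.86), *Ebf3* (-0.92) and *Ebf2* (-0.55) lower. Of 13 inhibitors, *Zeb1* was higher (0.92) and *Id1* (-0.88), *Id2* (-0.85) and *Id3* (-0.78) lower. The Id proteins hold bHLH factors off DNA. Of 13 muscle differentiation genes, 4 were higher and 0 lower: *Cdkn1c* (0.78), *Acta2* (2.27), *Cdh15* and *Ttn* (1.12), which did not pass without the cells with *Myog* alone (0.84, edgeR adjusted p = 0.344). Within the Hlx cluster alone *Acta2* (1.78, adjusted p = 1.5e-06), *Zeb1* (0.63, adjusted p = 4.3e-06) and *Dach1* (-0.82, adjusted p = 0.00981) kept their calls among these list genes.

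Genotypes were compared over counts summed per library in BrM-like cells (edgeR quasi-likelihood test on 14511 genes, replicate as a block, n = 2 libraries per genotype). In this comparison 0 of the 6 tested members passed an adjusted p of 0.05, and 0.159% of all genes did (23 genes, 16 higher and 7 lower in cKO). At an unadjusted p under 0.05 there were 5 of the 6 members and 1046 genes in all, and DESeq2 also called 0 members. *Myog* was too rare to be tested. By CPM, 5 of the 7 genes were higher in cKO in both replicates and 1 (*Tlx1*) was lower in both, while for *Myod1* the replicates differed in direction. For *Msc* and *Myog* the genotypes did not overlap, and 4 of the 7 genes were higher in both Rep2 libraries than in both Rep1 libraries. Among the 14202 genes with at least the 41 UMIs of *Myog*, 20.1% were higher in cKO in both replicates, the genotypes did not overlap for 11.6%, and 60.6% were higher in both Rep2 libraries. The count of members apart by replicate was thus near that of all genes. The place of *Myog* in these counts rests on 1, 15, 11 and 14 UMIs, and without it 4 of 6 genes were higher in cKO in both replicates and only *Msc* was without overlap.

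*Msc* was at 59.6, 72.9, 69.8 and 101 CPM. Both cKO libraries were above both cHet libraries, with a log2 fold change of 0.45 ± 0.08 that did not pass (edgeR adjusted p = 0.0916), or 0.29 in Rep1 and 0.53 in Rep2. The call depended on the settings, with adjusted p-values between 2.03e-05 and 1 over all alternatives. In thinned cells *Msc* was found in 39.7%, 45.5%, 40.3% and 52.2% of cells, and in 58%, 67.9%, 58.4% and 64.9% of cells as sequenced.

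*Tcf21* was at 85.9, 89.8, 159 and 224 CPM, and the genotypes overlapped. Its log2 fold change of 0.33 ± 0.1 (adjusted p = 0.311 by edgeR) came from Rep2 (0.5) more than from Rep1 (0.06). It was found in 54%, 50.9%, 72.1% and 81.3% of thinned cells. *Lhx2* was at 151, 204, 290 and 314 CPM (0.29 ± 0.08, edgeR adjusted p = 0.281), with 0.43 in Rep1 and 0.12 in Rep2. It was found in 62.1%, 69.5%, 72.8% and 76.4% of thinned cells, so that *Msc* and *Lhx2* were the 2 of the 7 genes with a larger share in cKO in both replicates.

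*Tlx1* was at 65.3, 52.5, 144 and 118 CPM, lower in the cKO library of each replicate, with a log2 fold change of -0.27 ± 0.07 that did not pass (edgeR adjusted p = 0.232). The Plcxd3 cluster, which held most of its UMIs, made up 25.7%, 15%, 33.4% and 32.8% of the BrM-like cells. The part of this make-up in the difference was not tested. *Myf5* was at 13.6, 15.7, 34.5 and 43.2 CPM (0.31 ± 0.1, edgeR adjusted p = 0.427), found in 11.7%, 11.7%, 23.6% and 27.5% of thinned cells. *Myod1* was at 5.73, 3.6, 2.77 and 4.13 CPM (0.08 ± 0.28, edgeR adjusted p = 0.996), with 57, 41, 69 and 105 UMIs, lower in cKO in Rep1 and higher in Rep2. *Myog* had 1, 15, 11 and 14 UMIs, of which 9 in cKO Rep1 were in 1 cell.

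**Figure D4:**
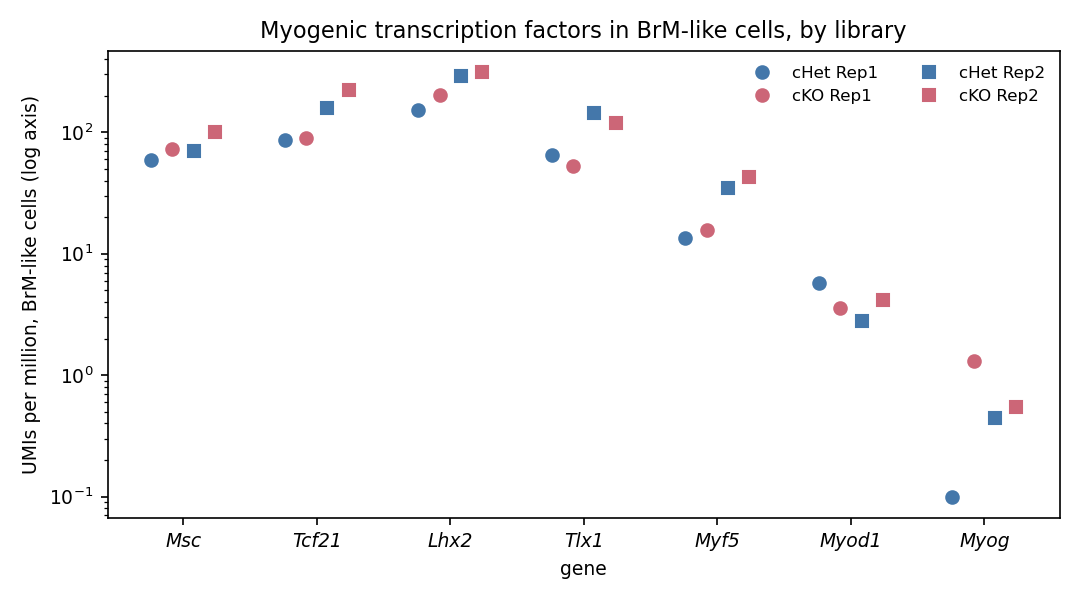
CPM of the 7 genes in BrM-like cells (log axis), 1 point per library (colour genotype, circles Rep1, squares Rep2). The Rep2 libraries lie above the Rep1 libraries for *Tcf21*, *Lhx2*, *Tlx1* and *Myf5*, by more than the genotypes differ within a replicate.

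Fits of each BrM-like cluster alone, added after the data were seen, called 2 of 16 member tests. *Msc* was higher in cKO in the Plcxd3 cluster (42.1, 54.2, 51.9 and 91.1 CPM), with a log2 fold change of 0.69 ± 0.15 (edgeR adjusted p = 0.0201), where 0.352% of all genes were called. The genotypes did not overlap there, and the cKO Rep1 value rests on 60 cells. *Tcf21* was higher in the Emx2 cluster (86.7, 109, 152 and 215 CPM; 0.46 ± 0.09, edgeR adjusted p = 0.00237), where 2.27% of genes were called, and the genotypes overlapped, with the same direction in both replicates (0.33 and 0.5). The difference between clusters was not called for either gene (adjusted p between 0.796 and 1). In the Hlx cluster edgeR called 0 of 6 members and 0.204% of genes, and at an unadjusted p under 0.05 there were 5 of the 6 members and 867 of 12735 genes.

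*Tlx1* was the member whose genotype difference by counts differed between the Hlx and Plcxd3 clusters. In the Hlx cluster it was at 25.5, 24.5, 100 and 62 CPM (-0.47 ± 0.13, adjusted p = 0.278) and in the Plcxd3 cluster at 194, 288, 351 and 325 CPM (0.19 ± 0.11, adjusted p = 0.964). Neither passed alone, and the difference between them was -0.59 ± 0.11 (edgeR interaction term, adjusted p = 7.54e-05, with 0.446% of genes called). Within the Hlx cluster the difference was in Rep2 (-0.69, against -0.06 in Rep1), and within the Plcxd3 cluster it was in Rep1 (0.57, against -0.11 in Rep2). That Rep1 value rests on 60 cells in cKO. By share of thinned cells *Tlx1* was lower in cKO in both replicates in each of these clusters. The shares were 13.6, 12.8, 37.2 and 27.8% (Hlx) and 86.5, 84.2, 93.2 and 91% (Plcxd3). In the Emx2 cluster *Tlx1* was at 9.83, 19.6, 14.4 and 7.84 CPM, and neither difference from the other clusters was called.

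**Figure D5:**
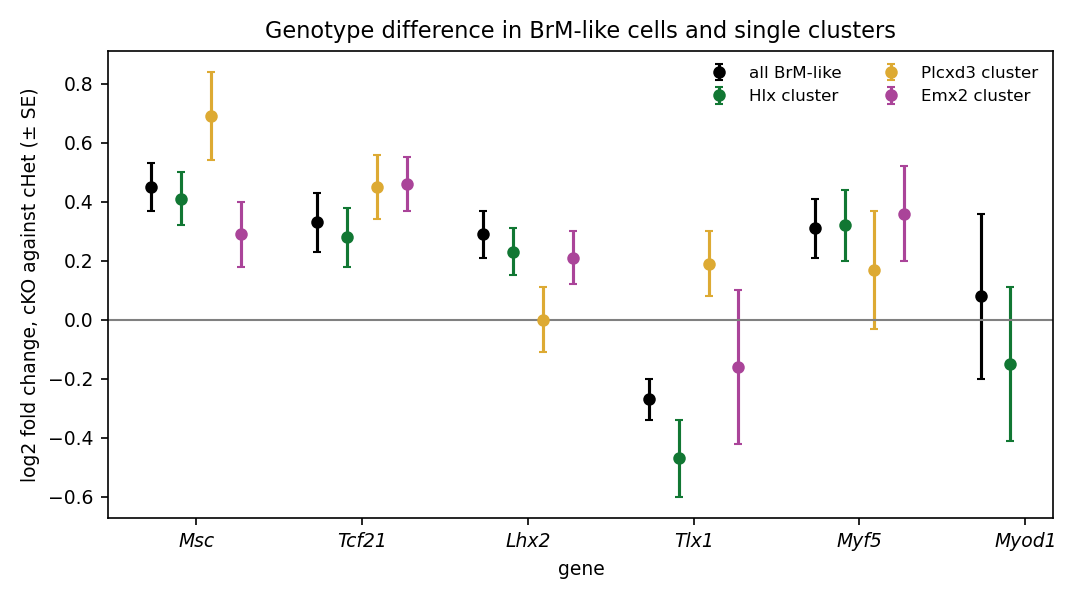
Log2 fold change of cKO against cHet (points, with SE as bars) from edgeR for the members tested in all BrM-like cells and in each BrM-like cluster. *Tlx1* lies below 0 in all BrM-like cells and the Hlx cluster and above 0 in the Plcxd3 cluster, and *Msc*, *Tcf21* and *Myf5* lie above 0 in each.

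Over all cells, where fewer cells of a type and less RNA per cell cannot be told apart, edgeR called 0 of 7 members, of which 3 were at an unadjusted p under 0.05, and 0 of 20126 genes (0%), of which 1139 were. DESeq2 also called 0 members. *Tlx1* had the lowest p of the 7 (-0.44 ± 0.11, edgeR adjusted p = 0.676). In the 9 other named types 1 of 29 member tests passed. The share of all genes called was 0.0764% in cardiac muscle-like, 0.0618% in endothelium-like, 0.0424% in epithelium-like, 1.56% in mesenchyme-like, 0.0489% in neuronal-like and 0.0691% in pSHF-like cells, where no member was. *Tcf21* was higher in cKO in MLP-like cells at 67.6, 70.3, 103 and 149 CPM (0.36 ± 0.07, edgeR adjusted p = 0.000441), where 0.753% of genes were called. The genotypes overlapped, and the log2 fold change was 0.06 in Rep1 and 0.53 in Rep2. The call was lost without the replicate block and by DESeq2 (adjusted p = 1 in both) and without any single library, and without cKO Rep2 the value was -0.07. In aSHF-like cells *Tcf21* (28.1, 29.6, 51.4 and 70.5 CPM, 0.3, edgeR adjusted p = 0.995) and *Tlx1* (58.1, 52.9, 80 and 69.3 CPM, -0.17, edgeR adjusted p = 0.995) did not pass, and 0% of genes did (586 of 13846 had an unadjusted p under 0.05).

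In somitic-like cells *Myog* was at 8.65, 54.5, 12.5 and 23.9 CPM and *Myf5* at 6.05, 36.5, 12 and 20.5 CPM. Both cKO libraries were above both cHet libraries for each gene, and neither passed (*Myog* 1.54 ± 0.3, edgeR adjusted p = 0.189, *Myf5* 1.35 ± 0.32, edgeR adjusted p = 0.385, with 0.0187% of genes called). Among the 6931 genes with at least the 189 UMIs of *Myf5* in these cells, both cKO libraries were above both cHet libraries for 4.1%, and the genotypes did not overlap in either direction for 8.82%. By share of cells thinned to 10000 UMIs the replicates differed in direction, at 2.5%, 8.33%, 2.21% and 1.43% for *Myog* and 5%, 12.5%, 11% and 10.7% for *Myf5*. The values rest on few cells: *Myog* was in 1 of 41, 9 of 73, 4 of 141 and 6 of 155 cells as sequenced, with 48 of the 118 UMIs of cKO Rep1 and 55 of the 70 UMIs of cKO Rep2 in 1 cell each.

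Genes around these factors did not pass in BrM-like cells either. Of 21 upstream and partner factors 0 were called by edgeR or DESeq2 (8 at an unadjusted p under 0.05), with a median log2 fold change of 0.04 (all genes 0), and those named by rule were *Ebf1* (log2 fold change 0.24, edgeR adjusted p = 0.275), *Tcf4* (0.04) and *Tcf12* (-0.05), the last 2 of which encode E proteins that pair with myogenic bHLH factors. Of 14 inhibitors 0 were called by either tool (5 at an unadjusted p under 0.05, median -0.11), among them *Id2* (0), *Id3* (-0.11) and *Id1* (-0.32). Of 24 tested muscle differentiation genes 0 were called by either tool (3 at an unadjusted p under 0.05, median -0.06), among them *Cdkn1c* (-0.01), a cell cycle inhibitor, *Des* (desmin, -0.5) and *Rb1* (0.01). Of the markers of 12 other cell types, 1 was called in BrM-like cells, the erythroid gene *Hbb-y* (1 of 3 tested, higher in cKO, with 2 of 5 erythroid markers at 0 in every library). The summed erythroid markers were at 8.74, 17.4, 1.65 and 4.6 CPM, and those of endothelium at 18.2, 12.7, 23.8 and 17.1 CPM, lower in cKO in both replicates, with 0 of 4 tested endothelium markers called. Also lower in both were the sums for pSHF (18.6, 6.33, 4.3 and 3.62 CPM), neural crest (39.3, 19.9, 51.6 and 46 CPM), cardiac muscle (17, 16.8, 36.9 and 32 CPM) and myeloid cells (3.01, 2.73, 2.25 and 2.08 CPM). Higher in both were those for epithelium (11.8, 12.9, 7.07 and 9.2 CPM), aSHF and MLP (43.3, 44.7, 62.8 and 66 CPM). Outside these lists, and chosen after their values were seen, *Hba-x*, an embryonic globin, was called higher (2.31, edgeR adjusted p = 0.0163) and *Etv2*, a factor of endothelial and blood precursors, lower (-1.62, edgeR adjusted p = 0.0236). The part of these cells in the differences above was not tested.

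Genes with the most similar pattern were sought over the 22 clusters among 13719 genes. Pearson's r was taken on the mean over the 4 libraries of log2(CPM + 1) in each cluster. These r describe clusters that share libraries, and carry no test. For *Msc* they were its antisense neighbour Gm9947 (r = 0.986), *Lhx2* (0.953) and *C7* (0.952), and for *Lhx2* the same genes with *Msc* in its place. For *Tcf21* they were its antisense neighbour Gm10824 (0.971), *Dusp14* (0.961) and *Nkain4* (0.942). *Tlx1* was followed by *Kazald1* (0.937), which lies 71391 bases away on chromosome 19, Gm5082 (0.932) and *Edn1* (0.857), which encodes endothelin 1. *Myf5* was followed by *Klhl13* (0.921), *Ano5* (0.918) and *Vgll3* (0.866), *Myod1* by *En2* (0.971), *Pgbd5* (0.835) and *Tnfsf4* (0.83), and *Myog* by *Cep41* (0.772), *Pax3* (0.758) and *Lrig1* (0.72).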

How the data were processed

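GFP-positive cells were sorted and profiled by 3′ single-cell RNA sequencing in 4 libraries, 2 per genotype. The authors deposited whole-number UMI counts per gene and barcode made with Cell Ranger (8.0.1 in the processing notes, 7.0.1 in the file headers of Rep1), with no scaling and no removal of free RNA. The genome build of the counts is not given in the sources used here. Cells had to show 3000 or more genes, with mitochondrial UMIs up to 10% and hemoglobin UMIs up to 5%. Doublets were removed by Scrublet score down to the rate expected for the kit, since its own threshold marked as few as 0.015% of barcodes. The cells were clustered with scanpy 1.11.5 (1993 variable genes without the 7, 30 components, replicates aligned, Leiden at 0.8). A cluster was named where at least 3 markers were in at least 10% of its cells and at least 2-fold higher than elsewhere, with conditions on its top 10 genes set after the clusters were seen, and 45.3 to 60.7% of cells per library stayed unnamed. Counts summed per library were tested with edgeR 4.0.16 in R 4.3.3 (quasi-likelihood, TMM, filterByExpr, Benjamini-Hochberg, threshold 0.05). In genotype tests, p-values set the difference between genotypes against its variation between the replicates. The variation of each gene was drawn toward that of all genes, so with few libraries the gene's own replicates count only in part. The SE was derived from the log2 fold change and the F statistic of the test, and is not a spread over replicates. In splits by detection, p-values set the difference between classes of cells against its variation between libraries, drawn toward that of all genes in the same way. The replicate number marks the kit, so it entered as a block. Libraries of the same replicate deviated together (correlation 0.853). Shares and co-detection used cells thinned to 10000 UMIs, and splits by *Myf5* or *Myod1* and *Myog* used these cells too. Named were the 7 genes, *Kmt2d*, *Tbx1*, called list genes or else the 3 of a list with the highest mean CPM, and the 5 largest called changes in each direction of a split. The genes, lists and tests were chosen with earlier results of these data known. Values of 1 further gene of the lists are not reported here. DESeq2 1.42.0 and other filters, scalings and clusterings were alternatives.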

Additional observations from a re-analysis of the deposited data

Results flagged for a closer look

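In 4 of 67 tests of the difference in genotype effect between cell types or BrM-like clusters, a member of the group passed an adjusted p of 0.05 (edgeR interaction term). For *Tlx1* the log2 fold change of cKO against cHet in the Hlx cluster minus that in the Plcxd3 cluster was -0.59 (adjusted p = 7.54e-05 by edgeR). The Plcxd3 cluster of cKO Rep1 held 60 cells. For *Lhx2* the change in BrM-like cells minus that in endothelium-like cells was 1.67 (edgeR adjusted p = 0.00165, 0.946% of genes called). Endothelium-like cells held 31 *Lhx2* UMIs in cHet Rep1 against 7 in cKO Rep1, and 34 in cHet Rep2 against 16 in cKO Rep2. For *Tcf21* the same difference was 1.88 (edgeR adjusted p = 0.00322), on 25, 3, 27 and 14 UMIs in the same order. For *Lhx2* against epithelium-like cells it was 2.09 (edgeR adjusted p = 0.0278, 0.194% of genes called), on 36, 5, 20 and 12 UMIs. In endothelium-like and epithelium-like cells *Lhx2* was at 0.588 to 3.86 CPM, below its 9.07 to 27 CPM in barcodes with under 1000 genes, and *Tcf21* in endothelium-like cells was at 0.391 to 2.73 CPM, below its 12.8 to 34.2 CPM there.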

How the results depend on the processing

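The count of members called in BrM-like cells was 0, and it was 3 with every gene of at least 1 count, 3 with cells of at least 1000 genes, and 1 each with doublets kept, with the members kept among the clustering genes, at Leiden resolution 0.5, in the Plcxd3 cluster and in the Emx2 cluster. The list genes called went from 0 to 8 with every gene of at least 1 count, 3 with cells of at least 1000 genes, 2 with the members kept, and 1 each with cells thinned to 5000 UMIs, doublets kept and resolution 0.5. All genes called went from 23 to between 0 and 376. Apart from the single clusters, the share of all genes called in each fit is not given beside these counts. The counts are therefore no result about the members. Of member tests in other types, the 1 call became 0 without the replicate block, 0 by DESeq2, 0 without any single library and 4 with every gene of at least 1 count. Without the replicate block 0 members and 0 genes were called in BrM-like cells, so the calls rest on the pairing by replicate. Members found in a larger share of cKO cells in both replicates went from 2 to 4, both without thinning and thinned to 5000 UMIs. The difference in the share of BrM-like cells moved from -0.475 to 1.3 points with cells of at least 1000 genes and -1.91 points at resolution 0.5. Beside *Myf5*, 384 genes became 915 without thinning, 84 by DESeq2, 225 with library and cluster as a block (added after the data were seen) and 167 to 392 with a library left out (167 without cHet Rep2, 177 without cKO Rep2). Beside *Myod1* or *Myog*, 384 became 753, 157 by DESeq2, 36 in the Hlx cluster only (also added) and 216 to 348 with a library left out (216 without cHet Rep2).

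The *Myod1* value in BrM-like cells turned to -0.14 without the replicate block, -0.31 thinned to 5000 UMIs and -0.08 with doublets kept. Beside *Myod1* or *Myog*, *Msc* turned to -0.01 by DESeq2 and to -0.07 in the Hlx cluster only, where *Lhx2* turned to -0.06. With a library left out, which breaks the pairing, so that these fits had no block and a lone library was assumed to vary like the others, log2 fold changes turned for several genes. In BrM-like cells the ranges were -0.22 to 0.78 for *Tcf21*, -0.76 to 0.2 for *Tlx1*, -0.37 to 0.92 for *Myf5* and -0.71 to 0.67 for *Myod1*. Over all cells they were -0.14 to 0.61 for *Msc*, -0.69 to 0.68 for *Tcf21*, -0.32 to 0.64 for *Lhx2*, -0.15 to 0.82 for *Myf5* and -0.64 to 0.19 for *Myod1*. For *Tcf21* they were -0.07 to 0.68 in MLP-like and -0.22 to 0.7 in aSHF-like cells. Beside *Myod1* or *Myog* they were -0.11 to 0.27 for *Msc*, -0.5 to 0.15 for *Myf5* and -0.63 to 0.01 for *Tcf21*, and beside *Myf5* -0.69 to 0.02 for *Myod1*. The cause of these shifts was not tested. The value of *Msc* in BrM-like cells stayed between 0.36 and 0.56 under all alternatives. With 41 UMIs *Myog* did not pass the count filter in BrM-like cells. Of 10 gene pairs, those co-detected above the expected number in all 4 libraries went from 5 to 3 thinned to 5000 UMIs, 7 without thinning and 4 with doublets kept, and those below it in all 4 from 3 to 3, 2 and 2.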

Other observations

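*Myf5* was also counted outside the named types. A cluster of 3222 unnamed cells, led by *Pcdh9* and *Dach2*, held 264 *Myf5* UMIs, at 4.24 ± 1.65 CPM (mean ± SD, 4 libraries) and in 3.75 ± 1.42% of thinned cells, and in the same cluster *Msc* was at 0.269 ± 0.238 CPM, *Tlx1* at 0.221 ± 0.18 CPM and *Myod1* at 0 UMIs. By library *Myf5* there was at 4.35, 6.52, 3.28 and 2.83 CPM, against 2.7, 2.23, 5.52 and 7.6 CPM in barcodes with under 1000 genes, above them in Rep1 and below them in Rep2. *Myod1* was found in 21 MLP-like cells, with 27 UMIs.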
